A study of Homo sapiens with 8 samples.

Results

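The cells described here were untreated or vehicle-treated HepaRG cells in which more than 20% of the unique molecular identifiers (UMIs, each standing for 1 captured RNA molecule) came from the 37 genes whose symbols begin with MT-, the genes of the mitochondrial genome. Of 12976 cells in the Parse Evercode single-cell count matrix, 2083 carried a sample name for a DMSO control or a medium control, and 492 of these lay above 20%. They were selected on that share alone. Cells from the same sample name with 5 to 20% of UMIs in MT- genes were the comparison group, and the comparison used nuclear genes only, with levels in counts per 1000000 nuclear UMIs (CPM).

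HepaRG is an established human liver cell line that was used terminally differentiated, a state in which hepatocyte-like and biliary-like cells share a dish. The cells had been plated on collagen for 7 days before a treatment of 24 h, with 0.1% DMSO as the vehicle and medium alone as the other control. As a model these samples have limits. HepaRG comes from 1 tumour and so from 1 genetic background, and the study describes 1 biological replicate per condition. Each sample name opens with a bare number, called the run here although no source names it so, and ends with a replicate number, which is 2 for both controls of run 3 and 4 for both controls of run 5. Each sample name is called a culture below, and no source says that these were separate cultures, so that p-values measure only the spread between these samples, which may be technical.

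Mitochondrial DNA encodes ribosomal RNAs, transfer RNAs and a small set of respiratory chain proteins, and its transcripts are made and kept inside the organelle. All other mitochondrial proteins are encoded in the nucleus and imported, so the RNA of nuclear genes for the respiratory chain can be compared with the mitochondrial share of a cell. The liver is rich in mitochondria. In single-cell work a high mitochondrial share is also commonly used as a sign of damaged cells, because cytoplasmic RNA can be lost from a leaky cell while RNA inside mitochondria is kept, and cells above a limit are often removed.

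The 4 cultures compared had at least 20 cells on each side of 20%. DMSO run 3 held 62 cells above 20% and 248 from 5 to 20%, DMSO run 5 held 82 and 311, medium run 3 held 90 and 235, and medium run 5 held 243 and 424. Together these were 477 cells above 20% against 1218 cells from 5 to 20%, with 6 more cells under 5%. The share of cells above 20% was 19.9% in DMSO run 3 (95% Wilson interval 15.8 to 24.7%), 20.9% in DMSO run 5 (17.1 to 25.2%), 27.6% in medium run 3 (23.0 to 32.7%) and 36.3% in medium run 5 (32.7 to 40.0%). These intervals cover counting error only. Across the 8 sublibraries, which are separately amplified and sequenced portions of the same pooled cells, the share ranged between 22.6% and 38.2%. The other 6 control sample names had too few cells on a side. Medium run 1 had all 5 of its cells above 20%, DMSO run 1 had 2 of 4, DMSO run 4 had 1 of 128 with 101 of its cells under 5%, medium run 4 had 2 of 24, DMSO run 6 had 4 of 97 and medium run 6 had 1 of 124.

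**Figure D1:**
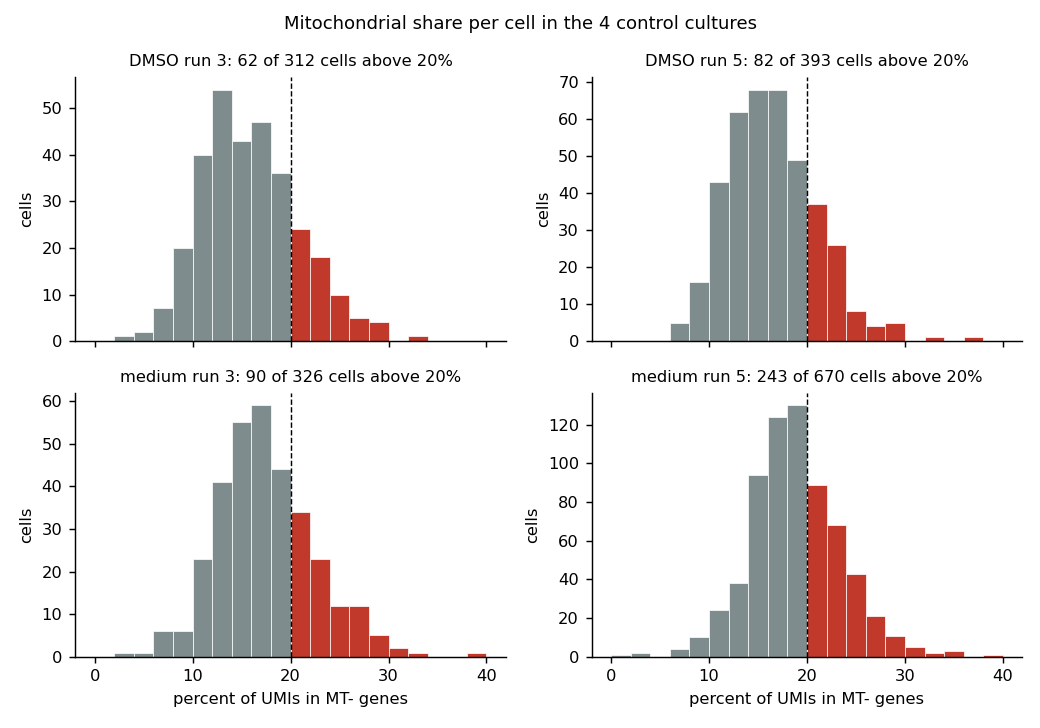
Number of cells (vertical axis) by percent of UMIs in MT- genes (horizontal axis, bars 2 points wide) in the 4 compared control cultures, with cells above 20% in red, all others in grey and the dashed line at 20%. In each culture the distribution ran without a gap through 20%, and the part above it held 62 of 312, 82 of 393, 90 of 326 and 243 of 670 cells.

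The distribution showed no gap at 20%. The lowest member had 20.01% and the highest cell outside had 19.999%, 95 members lay between 20 and 21%, and 127 cells lay between 19 and 20%. Only 118 members exceeded 25% and 18 exceeded 30%. The median share in members was 22.2 to 23.1% by culture, against 14.0 to 16.6% in the comparison cells, values that follow from the selection. Most mitochondrial UMIs came from the ribosomal RNAs MT-RNR1 and MT-RNR2, which made up 85.9 to 89.3% of them in cells above 20% and 84.3 to 88.1% in cells from 5 to 20%.

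Cells above 20% had fewer nuclear UMIs than the comparison cells of their own culture. The median was 20569 in DMSO run 3, 32129 in DMSO run 5, 27130 in medium run 3 and 50886 in medium run 5 for cells above 20%, against 26011, 67252, 38254 and 64434.5 for cells from 5 to 20% in the same order. The ratio of medians was 0.48 in DMSO run 5 and 0.71 to 0.79 in the other cultures. Mitochondrial UMIs per cell had ratios of 1.31 in DMSO run 3, 0.91 in DMSO run 5, 1.33 in medium run 3 and 1.18 in medium run 5, so that in DMSO run 5 the median member had fewer mitochondrial UMIs as well. After each cell was thinned to 5000 nuclear UMIs, the number of nuclear genes detected per cell had ratios of 0.98 to 1.00. A difference in RNA content and a difference in capture cannot be told apart from these counts.

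The labelled cell type was checked by the summed level of fixed markers. Hepatocyte markers (ALB, APOA1, APOB, TTR and 7 others) summed to 23215 ± 3753 CPM in cells above 20% and 18142 ± 4207 CPM in cells from 5 to 20% (SD, n = 4 cultures each). ALB (12096 and 8927 CPM) and APOB (5213 and 4184 CPM) made up most of both sums. Of the 11 markers 6 had a log2 difference above 0, with a median of 0.07. The median by culture was -0.19 in DMSO run 3, 0.21 in DMSO run 5, 0.45 in medium run 3 and 0.01 in medium run 5. Cholangiocyte markers summed to 135 ± 32 CPM and 137 ± 27 CPM. Mesenchymal markers summed to 93.0 ± 28.3 CPM in cells above 20% and 212 ± 57 CPM in cells from 5 to 20%, and the blood cell genes PTPRC and HBB together stayed at 0 to 0.5 CPM. VIM, usually abundant in mesenchymal cells, was nearly absent from the counts at 0 to 0.713 CPM in all 8 sums. The reason was not tested, so VIM does not inform on cell type here. Hepatocyte markers had the highest sum in both groups. The cells were a mixture: over the 8 clusters made from nuclear genes, hepatocyte markers summed to between 4394 and 58293 CPM and mesenchymal markers to between 67.8 and 544 CPM. Among the control cells, 284 had a well barcode that also occurred in another sublibrary, and no doublet caller was run here.

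Of 20183 nuclear genes tested, 267 rose and 498 fell in cells above 20% (edgeR quasi-likelihood test with culture as block, Benjamini-Hochberg adjusted p under 0.05), which is 3.79% of the genes, 1.32% rising and 2.47% falling. In 258 of the rising genes and 494 of the falling genes all 4 cultures moved in the same direction. This follows largely from the calling, since the test was paired within these same cultures, and the share over all genes is not given. Most changes were small: 29 genes rose and 92 fell by at least 2-fold, and the median log2 difference over all genes was -0.02. Of the 20183 genes 9130 lay above 0. Counts of called or positive members of a list, given below, are to be read beside these shares. Leaving out medium run 3 gave 61 rises and 167 falls, leaving out DMSO run 5 gave 109 and 223, and the counts were 190 and 363 without medium run 5 and 208 and 405 without DMSO run 3. In sums of cells, fewer cells of a type and less RNA of a gene per cell cannot be told apart, and shares of cells by cluster are given below.

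Because cells above 20% had fewer nuclear UMIs, sums were also compared within 3 classes of nuclear UMI depth of equal size in each culture. Of the 700 called genes that could be tested there, 700 had the same sign and 658 passed the test. These 12 blocks divide the cells from which the genes were called and are not replicates, so the shared sign follows largely from the calling. The same cells were also thinned to 5000 nuclear UMIs each. Of the 679 called genes that could be tested then, 679 had the same sign but 272 passed the test. Sums were further compared within clusters of cells made from nuclear genes. Of the 640 called genes that could be tested there, 632 had the same sign but 134 passed the test, and the median log2 difference was 0.23 for genes called higher and -0.29 for genes called lower, against 0.40 and -0.54 without clusters. With at least 10 cells required on each side, these were 15 blocks that held 379 of the 477 cells above 20%, 7 of them from medium run 5. The cluster blocks too are parts of the same cultures and not replicates. The share of cells above 20% differed between clusters. It was 11.2% in the cluster whose leading genes included COL3A1 and DCN and 15.3% in the cluster led by mitotic genes. Hepatocyte markers summed to 4394 and 10401 CPM in these clusters. A cluster of 58 cells had 55.2%, with a hepatocyte sum of 7462 CPM. The largest cluster, of 355 cells, had 40.3% with 13686 CPM and held 143 cells above 20%. The cluster with the highest hepatocyte sum, 58293 CPM, had 25%. The other clusters had 35%, 32.1% and 26.9%, with hepatocyte sums of 24475, 32882 and 18543 CPM. The share did not follow the hepatocyte sum across clusters. The 4 cultures together had 28.0%. The clusters were themselves made from nuclear genes. The part that the mix of clusters has in the result was not tested beyond these values.

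The serum amyloid A genes were among the most strongly raised well-measured genes. SAA1 and SAA2 encode acute-phase proteins that hepatocytes secrete when stimulated by inflammatory cytokines. SAA2 had 296, 294, 174 and 323 CPM in cells above 20% of DMSO run 3, DMSO run 5, medium run 3 and medium run 5, against 138, 186, 98.3 and 198 CPM in cells from 5 to 20%. Within each culture the cells above 20% were the higher ones, while medium run 3 was the lowest culture in both groups. The log2 difference was 0.81 ± 0.07 (SE), with an adjusted p of 0.000522 by the edgeR quasi-likelihood test. SAA1 had 543, 715, 329 and 607 CPM in cells above 20%, against 342, 450, 234 and 426 CPM in cells from 5 to 20%, with a log2 difference of 0.58 ± 0.05 and an edgeR adjusted p of 0.000635. Both calls held with any 1 culture left out and within clusters. In GRCh38 (GENCODE 44) SAA1 lies on chromosome 11 at 18266260 to 18269977 on the plus strand, and SAA2 lies nearby at 18239223 to 18248668 on the minus strand. The read-through gene SAA2-SAA4 (log2 difference 0.79) overlaps SAA2, and SAA1 and SAA2 are near-identical copies, so the split of reads between these genes is uncertain.

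The list of cytokines and NF-kB feedback genes, to which SAA1 and SAA2 belong, had 8 of 20 tested members rising and 0 falling, against 1.32% and 2.47% over all genes. Its median log2 difference was 0.38 against -0.02 over all genes. The list was chosen with earlier results of these data known. Its members summed to 3840, 4133, 3412 and 4053 CPM in cells above 20% of the 4 cultures, against 2793, 3233, 2435 and 3294 CPM in cells from 5 to 20%. The lowest sum above 20%, in medium run 3, exceeded the highest sum from 5 to 20%, so the groups did not overlap. Besides the SAA genes the members that rose were IL32, a cytokine (0.46), TNFAIP3, which restrains NF-kB signalling (0.44), the neutrophil chemokine CXCL8 (0.42), the interferon-related transcription factor IRF1 (0.40), the adhesion molecule ICAM1 (0.39) and the mitochondrial superoxide dismutase SOD2 (0.39), all as log2 differences. Without medium run 3 there were 3 rises, and IL32, TNFAIP3, CXCL8, IRF1 and ICAM1 missed the threshold with edgeR adjusted p between 0.0602 and 0.165. Within clusters the median was 0.26 over 16 members, and 4 rose.

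Several liver plasma protein genes also rose. ALB, which encodes albumin, had 9819, 13211, 11658 and 13696 CPM in cells above 20% of DMSO run 3, DMSO run 5, medium run 3 and medium run 5, against 7839, 9476, 7217 and 11176 CPM in cells from 5 to 20%. The highest comparison value, in medium run 5, lay above the value above 20% in DMSO run 3, so the groups overlapped between cultures although every culture moved the same way. The log2 difference was 0.45 ± 0.06 with an edgeR adjusted p of 0.00437, and it was 0.38 within clusters with an adjusted p of 0.00535.

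The 3 fibrinogen chain genes lie side by side on chromosome 4 (GRCh38), FGB at 154563011 to 154572807, FGA at 154583126 to 154590742 and FGG at 154604134 to 154612967. They encode the clotting protein fibrinogen. FGA had 821, 1310.1, 861 and 1375 CPM in cells above 20%, against 621, 930, 540 and 1135 CPM in cells from 5 to 20%. Log2 differences were 0.46 for FGA, 0.45 for FGB and 0.33 for FGG, with edgeR adjusted p of 0.00369, 0.00355 and 0.0179. FGG missed the threshold without DMSO run 5 (adjusted p = 0.0924) and without medium run 3 (0.108), and the calls of ALB, FGA and FGB held without any 1 culture.

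Of 37 tested genes for proteins that hepatocytes secrete, 8 rose and 1 fell, against 1.32% rising and 2.47% falling over all genes. Next to ALB and the fibrinogens the rising ones were APOB, the structural protein of very low density lipoprotein (0.33), the acute-phase glycoproteins ORM1 (0.33) and ORM2 (0.29), and A1CF, the factor that guides editing of APOB messenger RNA and is listed among them (0.32). AHSG, which encodes fetuin-A, fell, at 4.73 ± 2.49 CPM in cells above 20% and 10.6 ± 3.2 CPM in cells from 5 to 20% (SD, n = 4 each), a log2 difference of -1.10. ORM1 and ORM2 are near-identical copies and their split is uncertain. The median over the list was 0.14, and by culture it was -0.32 in DMSO run 3, 0.24 in DMSO run 5, 0.36 in medium run 3 and 0.02 in medium run 5. Leaving out medium run 3 gave 3 rises and 2 falls, and leaving out DMSO run 5 gave 4 rises. APOB, ORM1, ORM2 and A1CF missed the threshold without medium run 3 (edgeR adjusted p = 0.0518, 0.102, 0.159 and 0.155), and AHSG did without medium run 5 (0.184).

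**Figure D2:**
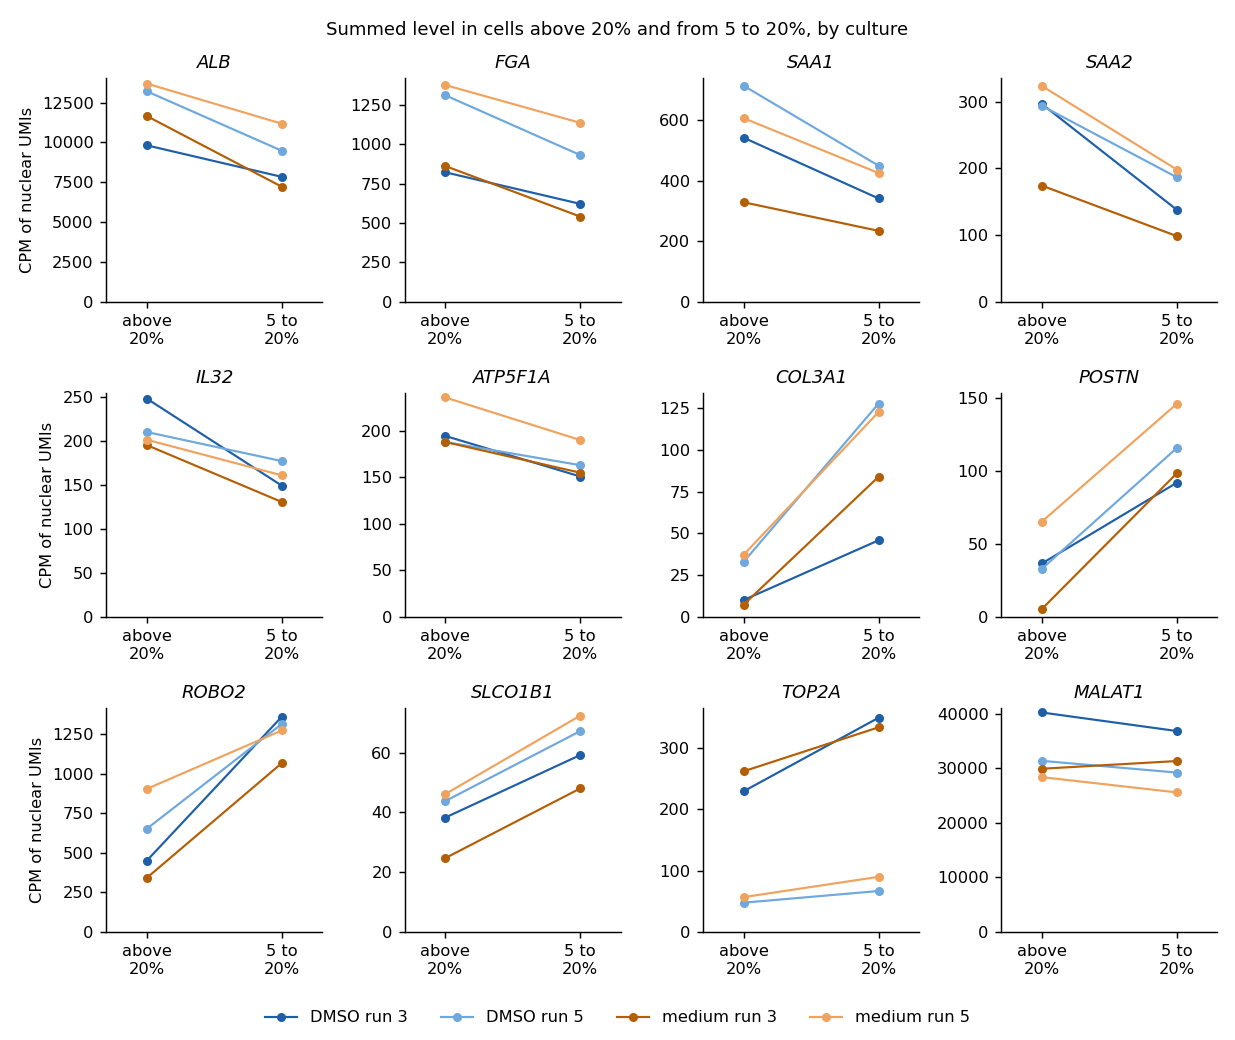
Summed level of 12 genes (vertical axis, CPM of nuclear UMIs) in cells above 20% (left) and from 5 to 20% (right), with 1 line per control culture. ALB, FGA, SAA1, SAA2, IL32 and ATP5F1A were higher above 20% in every culture, COL3A1, POSTN, ROBO2, SLCO1B1 and TOP2A were lower in every culture, and MALAT1 had log2 differences of 0.13, 0.10, -0.07 and 0.15.

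Genes of drug metabolism and transport moved in both directions. Of 24 tested, 4 rose and 1 fell, with a median of -0.04, against 1.32% rising and 2.47% falling over all genes. SLCO1B1, which encodes the hepatic uptake transporter OATP1B1, had 38.2, 43.7, 24.6 and 46.1 CPM in cells above 20%, against 59.2, 67.2, 48.0 and 72.4 CPM in cells from 5 to 20%. The groups did not overlap. The log2 difference was -0.70 ± 0.08 with an edgeR adjusted p of 0.00175, and within clusters it was -0.74 with an adjusted p of 0.00171. ABCB1, the efflux pump P-glycoprotein, rose with 342, 315, 262 and 271 CPM in cells above 20%, against 250, 224, 174 and 213 CPM in cells from 5 to 20% (0.47 ± 0.06, edgeR adjusted p = 0.00217). The glutathione transferases GSTA2 (0.82) and GSTA1 (0.34) and the cytochrome P450 CYP3A5 (0.26) also passed the test, but GSTA1 and GSTA2 are close copies and all 3 missed the threshold when medium run 3 was left out (edgeR adjusted p = 0.094, 0.0707 and 0.204 for GSTA2, GSTA1 and CYP3A5). CYP3A4, the main drug-metabolising P450 of adult liver, had 15.0 ± 1.7 CPM in cells above 20% and 26.1 ± 14.9 CPM in cells from 5 to 20% (SD, n = 4 each) and did not pass (log2 difference -0.69, edgeR adjusted p = 0.259).

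Of 16 genes of the urea cycle and amino acid breakdown, 3 rose and 1 fell, against 1.32% rising and 2.47% falling over all genes. GLDC, the decarboxylase of the glycine cleavage system in mitochondria, had 115, 136, 97.3 and 102 CPM in cells above 20%, against 68.0, 86.6, 66.9 and 75.3 CPM in cells from 5 to 20% (0.58 ± 0.07, edgeR adjusted p = 0.00191), and its groups did not overlap. G6PC1, the glucose-6-phosphatase that releases glucose, fell (-1.20), with 5.41 ± 2.97 CPM in cells above 20% and 14.9 ± 4.9 CPM in cells from 5 to 20% (SD, n = 4 each). Its call was lost without DMSO run 5 (edgeR adjusted p = 0.108) and without medium run 3 (0.0566). The hepatocyte regulator HNF4A had 153 ± 37 CPM in cells above 20% and 144 ± 19 CPM in cells from 5 to 20% (SD, n = 4 each) and did not pass (0.07, edgeR adjusted p = 0.731).

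Nuclear genes of the mitochondrial respiratory chain had small positive differences. Of 39 tested subunits of complexes II to V, 38 had a log2 difference above 0, against 9130 of the 20183 genes tested. Among the 39, 3 rose and 0 fell, against 1.32% and 2.47% over all genes. Their median was 0.20 against -0.02 over all genes, and 27 had an unadjusted p under 0.05. The share of all genes at that unadjusted threshold is not given, so such counts for lists, here and below, are descriptive only. The subunits summed to 2628, 3048, 2240 and 3170 CPM in cells above 20% of DMSO run 3, DMSO run 5, medium run 3 and medium run 5, against 2299, 2659, 1949 and 2713 CPM in cells from 5 to 20%. Every culture was higher above 20%, and the groups overlapped between cultures. The members that rose were CYC1 (0.34) and UQCRC2 (0.24) of complex III and ATP5F1A (0.29), the alpha subunit of ATP synthase. ATP5F1A had 195, 188, 188 and 236 CPM in cells above 20%, against 151, 163, 155 and 190 CPM in cells from 5 to 20% (edgeR adjusted p = 0.0168). CYC1, UQCRC2 and ATP5F1A missed the threshold without medium run 3 (edgeR adjusted p = 0.142, 0.193 and 0.0846) and without medium run 5 (0.142, 0.132 and 0.0738). CYC1 and UQCRC2 also missed it without DMSO run 5 (edgeR adjusted p = 0.198 and 0.0927), and UQCRC2 without DMSO run 3 (0.0546). The median over the 39 lay between 0.19 and 0.21 whichever culture was left out.

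Of 37 nuclear subunits of complex I, the entry point for electrons from NADH, 32 lay above 0 and 2 rose, NDUFB5 (0.28) and NDUFB9 (0.31), with a median of 0.12. Of 19 citric acid cycle genes 3 rose, among them the fumarase FH (0.29) and the succinate-CoA ligase subunit SUCLG1 (0.28), with a median of 0.17. The calls of NDUFB5, NDUFB9, FH and SUCLG1 were each lost whichever single culture was left out. Among 20 genes of fatty acid oxidation edgeR called 0 at the adjusted threshold and DESeq2 called 0, with 8 at an unadjusted p under 0.05 and a median of 0.15.

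The machinery that copies, processes and translates mitochondrial RNA differed less. Of 75 mitochondrial ribosomal protein genes edgeR called 0 and DESeq2 called 0, with 0 at an unadjusted p under 0.05 and a median of 0.04. Of 25 genes for processing and decay of mitochondrial RNA both tools called 0, with 0 at an unadjusted p under 0.05. Of 18 genes for mitochondrial transcription and replication 1 rose, POLG2, an accessory subunit of the mitochondrial DNA polymerase, and that call was lost whichever culture was left out. TFAM, which packages mitochondrial DNA and starts its transcription (0.14, edgeR adjusted p = 0.352), LRPPRC, which stabilises mitochondrial messenger RNA (0.10, 0.414), and PPARGC1A, a coactivator of mitochondrial biogenesis (0.06, 0.670), did not pass. Of 21 import genes edgeR called 0 and DESeq2 called 0, with 1 at an unadjusted p under 0.05.

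Nuclear copies of mitochondrial genes can take up reads from the organelle. Of 402 such copies among the genes, 8 had enough UMIs to test, and 2 rose, MTND2P28 (0.68) and MTATP6P1 (0.63). The copies summed to 463, 555, 514 and 407 CPM in cells above 20%, against 249, 372, 348 and 300 CPM in cells from 5 to 20%. Without these copies and the cytosolic ribosomal protein genes, 265 genes rose and 496 fell.

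Several genes of extracellular matrix and mesenchymal cells fell, and COL3A1 had the largest fall among called genes with at least 50 CPM. COL3A1, which encodes the chain of type III collagen, lies on chromosome 2 at 188974373 to 189012746 (GRCh38). It had 10.0, 32.8, 7.18 and 37.1 CPM in cells above 20% of DMSO run 3, DMSO run 5, medium run 3 and medium run 5, against 45.8, 128, 83.9 and 123 CPM in cells from 5 to 20%. Each value above 20% lay under every value of the comparison group. The log2 difference was -2.09 ± 0.18 with an edgeR adjusted p of 0.000468. POSTN, the matrix protein periostin, had 36.5, 32.8, 5.30 and 65.1 CPM in cells above 20%, against 91.8, 115, 98.2 and 146 CPM in cells from 5 to 20%, again without overlap (-1.73 ± 0.26, edgeR adjusted p = 0.00554). SPARC, a collagen-binding matrix protein, had 4.12, 23.8, 8.42 and 15.6 CPM in cells above 20%, against 22.3, 56.9, 20.7 and 42.1 CPM in cells from 5 to 20% (-1.42 ± 0.12, edgeR adjusted p = 0.000468).

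Of 20 tested mesenchymal genes 11 fell and 1 rose, against 2.47% falling and 1.32% rising over all genes. Their median log2 difference was -0.62 against -0.02 over all genes. The others that fell were the receptor PDGFRB of pericytes and fibroblasts (-1.81), the collagens COL6A3 (-1.74) and COL5A1 (-0.66), the small proteoglycans DCN (-1.20) and LUM (-1.09), FBN1 of microfibrils (-0.87), the protease inhibitor TIMP1 (-0.36) and the laminin chain LAMA2 (-0.32). COL1A1 had 13.7 ± 2.9 CPM in cells above 20% and 20.1 ± 9.9 CPM in cells from 5 to 20% (SD, n = 4 each) and narrowly did not pass (-0.58, edgeR adjusted p = 0.0553). The member that rose was CCN2, a secreted matricellular protein that epithelial cells also make (0.34). Leaving out 1 culture gave 8 to 12 falls, and COL6A3 missed the threshold without medium run 3 or medium run 5 (edgeR adjusted p = 0.0756 and 0.195). Within clusters 15 members could be tested, the median was -0.25 and 6 fell, among them COL3A1 (-1.16), POSTN (-1.17) and SPARC (-1.12). The cluster whose leading genes included COL3A1 and DCN entered that fit from medium run 5 alone, with 17 cells above 20% and 81 cells from 5 to 20%, since the other cultures had 2 to 9 such cells above 20% in it. Mesenchymal marker genes were low in both groups, at 63.5 to 120 CPM together in cells above 20% and 131 to 261 CPM in cells from 5 to 20%.

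Besides COL3A1 and POSTN, the 15 largest falls held 7 other protein-coding genes of varied roles. The 15 were chosen by size among the called genes, so that no test of the set applies. ROBO2, a receptor for Slit guidance proteins that spans chromosome 3 from 75906695 to 77649964 (GRCh38), had 450, 652, 342 and 905 CPM in cells above 20%, against 1362, 1316, 1069 and 1275 CPM in cells from 5 to 20% (-1.17 ± 0.15, edgeR adjusted p = 0.00285). It was the most abundant gene of the 15, and its groups did not overlap. The neural cell adhesion molecule NCAM1 had 34.1, 46.8, 41.5 and 52.8 CPM in cells above 20%, against 106, 89.8, 109 and 88.8 CPM in cells from 5 to 20% (-1.08 ± 0.12, edgeR adjusted p = 0.00137). The potassium channel gene KCND2 (-1.02), the collagen-binding integrin ITGA11 (-1.11), the adhesion receptor ADGRB3 (-1.01), TRDN, which encodes the calcium release protein triadin (-1.03), and the transcription factor EBF1 (57.3 ± 23.5 CPM in cells above 20% and 117 ± 15 CPM in cells from 5 to 20%, SD, n = 4 each) fell too. All 15 calls held without any 1 culture. Within clusters KCND2, NCAM1 and ROBO2 kept an adjusted p under 0.05, with log2 differences of -0.82, -0.64 and -0.67, whereas ITGA11 (-0.48, adjusted p = 0.112), EBF1 (-0.40, 0.349), TRDN (0.059) and ADGRB3 (0.0764) did not.

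Of these 15 falls 6 were long non-coding RNAs, as were 7 of the 15 largest rises. Such RNAs were 5123 of the 20183 genes tested, 46 of the 267 rises and 104 of the 498 falls. Among genes with at least 50 CPM, from which the 15 were taken, they were 422 of 4952, 17 of 188 rises and 54 of 257 falls. ENSG00000285751, on chromosome 11 at 39024631 to 39161638, had 5.88, 19.5, 6.55 and 37.1 CPM in cells above 20%, against 83.0, 78.9, 77.7 and 90.5 CPM in cells from 5 to 20% (-2.04 ± 0.26, edgeR adjusted p = 0.00279). It was nearly level across the comparison sums and varied more across the sums above 20%. The largest rise was ENSG00000240241, on chromosome 3 at 78266940 to 78294731, with 109, 95.3, 111 and 85.5 CPM in cells above 20%, against 61.8, 32.1, 43.5 and 37.4 CPM in cells from 5 to 20% (1.25 ± 0.10, edgeR adjusted p = 0.000468). LINC02015, also on chromosome 3, had 642, 592, 556 and 589 CPM in cells above 20%, against 401, 386, 304 and 376 CPM in cells from 5 to 20% (0.70 ± 0.06, edgeR adjusted p = 0.000468). Among protein-coding rises FLRT3, a cell-surface receptor of fibroblast growth factor signalling and adhesion, was the most even, with log2 differences of 0.59, 0.62, 0.66 and 0.59 in the 4 cultures (edgeR adjusted p = 0.000468). C1QTNF1, a secreted C1q and TNF related protein, rose by 0.54, with 92.1 ± 3.1 CPM in cells above 20% and 63.2 ± 8.4 CPM in cells from 5 to 20% (SD, n = 4 each).

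Genes of cell division were lower above 20%. Of 25 tested 8 fell and 0 rose, against 2.47% falling and 1.32% rising over all genes. In this list 24 lay at or under 0, and the median was -0.37. TOP2A, the DNA topoisomerase of dividing cells, had 229, 47.5, 262 and 56.6 CPM in cells above 20% of DMSO run 3, DMSO run 5, medium run 3 and medium run 5, against 350, 66.6, 334 and 89.8 CPM in cells from 5 to 20% (-0.53 ± 0.07, edgeR adjusted p = 0.00241). The 2 cultures of run 3 stood above the 2 of run 5 in both groups. CDK1, the kinase that starts mitosis, fell by 0.79 on the log2 scale, and BUB1 (-0.57), CENPE (-0.50) and MKI67 (-0.37), a common marker of cycling cells, passed as well. With 1 culture left out 3 to 5 genes of the list passed, and of the 8 only TOP2A and CDK1 passed whichever culture it was. BUB1, CENPE and MKI67 missed the threshold without DMSO run 5 (edgeR adjusted p = 0.0654, 0.0644 and 0.145). Against cells from 5 to 10% alone the MKI67 difference was 0.13 (adjusted p = 0.92). Within clusters 14 members could be tested with a median of -0.17, and TOP2A (-0.42, adjusted p = 0.515) and MKI67 (-0.28, 0.723) did not pass. The cluster led by mitotic genes such as TOP2A and CDK1 entered that fit from medium run 3 and medium run 5, with 11 cells above 20% in each, against 60 and 38 cells from 5 to 20%.

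Stress and death genes showed few called differences. Of 24 apoptosis genes edgeR called 0 and DESeq2 called 0, with 6 at an unadjusted p under 0.05. Of 24 autophagy and lysosome genes both tools called 0, with 0 at an unadjusted p under 0.05. Of 22 immediate early genes, which cells switch on within minutes of stimulation or dissociation, both tools called 0, with 2 at an unadjusted p under 0.05, and FOS had a log2 difference of -0.03. Of 23 p53 targets 3 fell, TP53I3 (-0.45), SPATA18 (-0.31) and DDB2 (-0.29), against 2.47% falling over all genes. In this list 21 lay at or under 0, and the median was -0.12. Each of the 3 p53 target calls was lost when DMSO run 5 or medium run 3 was left out. CDKN1A, the p53-driven inhibitor of the cell cycle, did not pass (-0.06, edgeR adjusted p = 0.684).

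Of 30 genes of the integrated stress response, the programme that follows phosphorylation of eIF2alpha, 2 fell, the serine synthesis enzyme PSAT1 (-0.56) and the cystine transporter SLC7A11 (-0.37). Both calls were lost without medium run 3 (edgeR adjusted p = 0.139 and 0.104), PSAT1 also without medium run 5 (0.0861) and SLC7A11 also without DMSO run 5 (0.0746). Its regulators ATF4 (-0.08, edgeR adjusted p = 0.624) and DDIT3 (0.21, 0.075) and its secreted target GDF15 (-0.02, 0.957) did not pass. Of 27 endoplasmic reticulum folding genes 3 rose, the chaperones CANX (0.32), HYOU1 (0.30) and DNAJB9 (0.29), with a median of 0.14, against 1.32% rising over all genes. The CANX call alone of these held without any 1 culture, with 399 ± 10 CPM in cells above 20% and 318 ± 16 CPM in cells from 5 to 20% (SD, n = 4 each). One gene fell in each of the heat shock list (HSPB1, -0.34), the NRF2 list (again SLC7A11) and the hypoxia list (BNIP3L, -0.37), and the HSPB1 and BNIP3L calls were lost without DMSO run 5, medium run 3 or medium run 5.

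RNAs that stay in the nucleus did not differ by a called amount. MALAT1, the most abundant of them, had 40274, 31396, 29946 and 28405 CPM in cells above 20% of the 4 cultures, against 36869, 29239, 31361 and 25600 CPM in cells from 5 to 20% (0.08 ± 0.05, edgeR adjusted p = 0.485). NEAT1 had a log2 difference of 0.04 (edgeR adjusted p = 0.771). Of 10 nuclear-retained RNAs and of 75 cytosolic ribosomal protein genes edgeR called 0 and DESeq2 called 0, with 1 and 3 at an unadjusted p under 0.05. Genes over 100 kb long had a median log2 difference of -0.05 with 83 rises and 270 falls among 4463, against -0.01 with 36 rises and 31 falls among 4305 genes under 10 kb. Over all genes 1.32% rose and 2.47% fell. Short genes were mostly low, and only 261 of them reached 50 CPM in either group, with 21 rises and 10 falls. Of genes over 100 kb 2267 reached 50 CPM, with 56 rises and 172 falls, against 188 and 257 among all 4952 such genes.

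**Figure D3:**
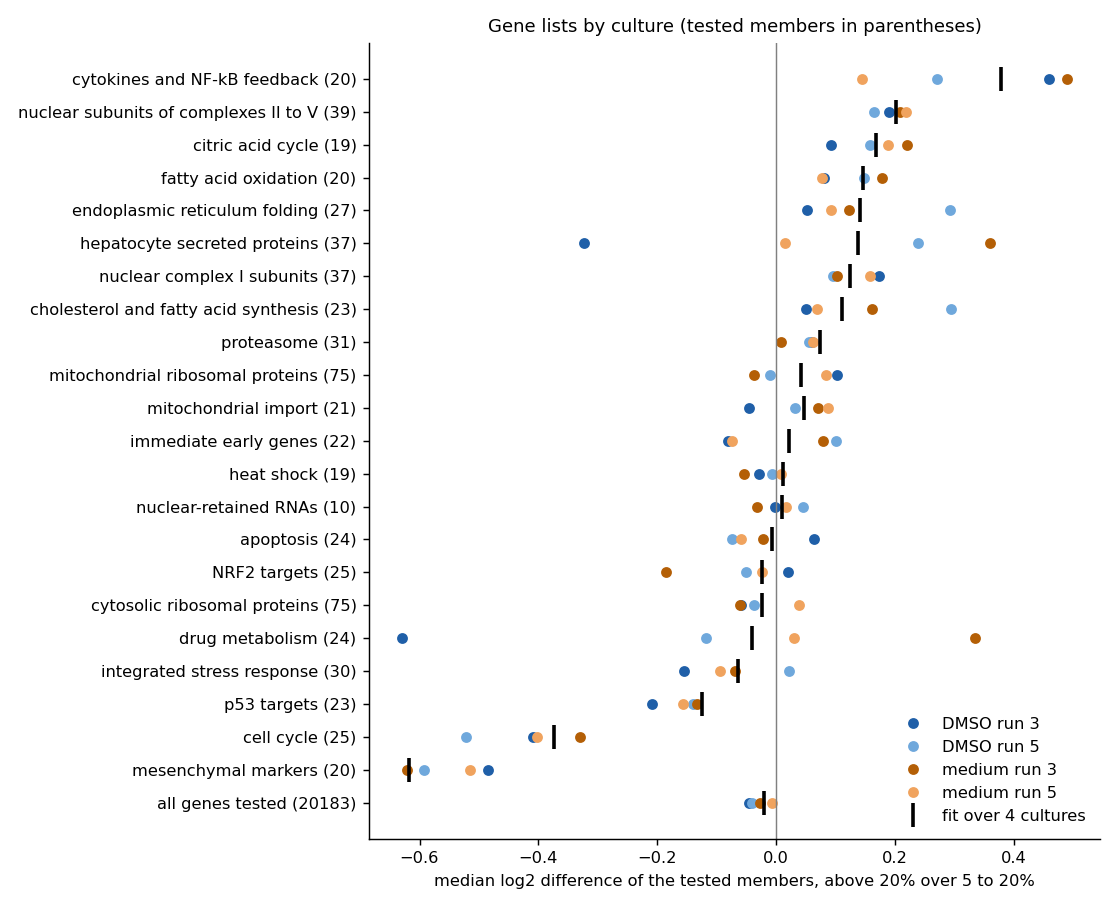
Median log2 difference, cells above 20% over cells from 5 to 20% (horizontal axis), of the tested members of each gene list (vertical axis, number tested in parentheses), with 1 point per control culture and a black bar for the fit over the 4 cultures. Cytokine and respiratory chain lists lay to the right of 0 in all 4 cultures, cell cycle, p53 target and mesenchymal lists lay to the left in all 4, and hepatocyte secreted proteins spread between -0.32 and 0.36.

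To see whether the differences began at 20%, cells were summed in steps of the mitochondrial share. These levels are given as a description. Subunits of complexes II to V summed to 2052 CPM at 5 to 10%, 2465 CPM at 15 to 20% and 2792 CPM at 25 to 30% in DMSO run 3, to 2213, 2907 and 3227 CPM at these steps in DMSO run 5, to 1860, 2018 and 2297 CPM in medium run 3 and to 2090, 2821 and 3286 CPM in medium run 5. These levels were higher at 15 to 20% than at 5 to 10% in all 4 cultures. SAA2 had 77.7, 185 and 571 CPM at these steps in DMSO run 3, 53.5, 114 and 208 CPM in medium run 3, and 75.3, 206 and 379 CPM in medium run 5, where the 11 cells over 30% had 222 CPM. In DMSO run 5 SAA2 had 233 CPM at 5 to 10%, 149 CPM at 10 to 15%, 233 CPM at 15 to 20% and 420.4 CPM at 25 to 30%, so it was no higher just below 20% than at 5 to 10% there. COL3A1 had 84.2, 19.8 and 0 CPM in DMSO run 3, 323, 71.7 and 51.4 CPM in DMSO run 5, 82.3, 67.1 and 0 CPM in medium run 3 and 134, 108 and 11.8 CPM in medium run 5. A level of 0 came from 16 cells in DMSO run 3 and 21 cells in medium run 3. ALB had its highest level over 30% in medium run 5 (21624 CPM) but was lower at 25 to 30% than at 20 to 25% in DMSO run 3 (8180 and 10433 CPM) and in medium run 3 (10164 and 12140 CPM). Cells at 5 to 10% were also shallow, with a median of 19590 to 23678 nuclear UMIs, against 36913.5 to 87353 at 10 to 15%.

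**Figure D4:**
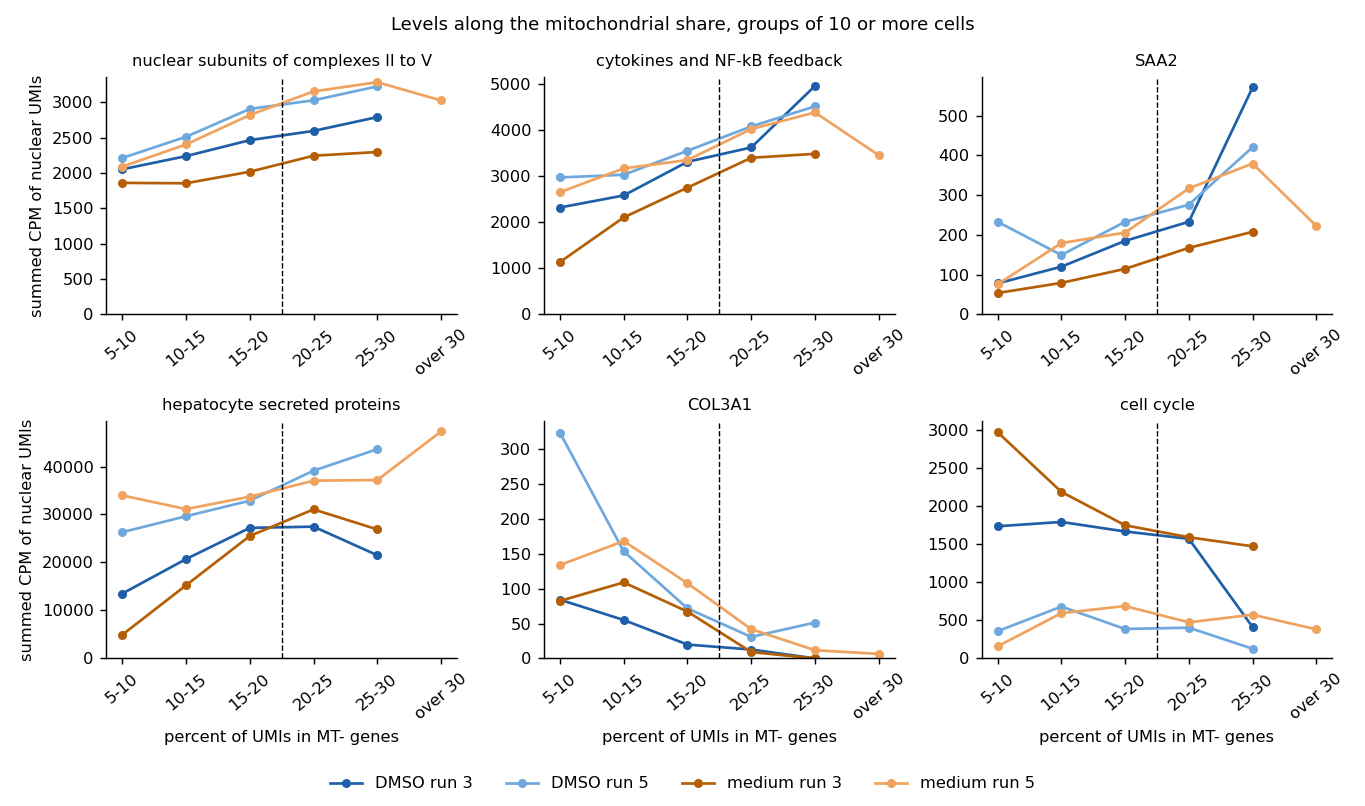
Summed level (vertical axis, CPM of nuclear UMIs) in steps of the percent of UMIs in MT- genes (horizontal axis), for 4 gene lists, SAA2 and COL3A1, with 1 line per control culture, steps of at least 10 cells and the dashed line at 20%. Subunits of complexes II to V had 2052 CPM at 5 to 10% and 2792 CPM at 25 to 30% in DMSO run 3, where COL3A1 had 84.2 and 0 CPM at these steps.

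Whether the difference depended on the vehicle was asked with an interaction term, medium minus DMSO. edgeR called 0 of 20183 genes, with 542 (2.69%) at an unadjusted p under 0.05, and DESeq2 called 1. With 2 cultures of each kind this does not show that the difference was alike in DMSO and in medium. The medium cultures alone gave 225 rises and 382 falls, and the DMSO cultures alone gave 57 and 164.

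The same comparison was made in 22 treated cultures of the same matrix with at least 20 cells on each side, which share no cell with the control cultures and hold 3962 cells above 20% and 5472 cells from 5 to 20%. They were 16 combinations of compound and dose, some present in 2 sample names. The compounds were the protein synthesis inhibitor cycloheximide (0.2, 2 and 20 µM), the topoisomerase II poison etoposide (0.25, 2.5 and 25 µM), the glycosylation inhibitor tunicamycin (0.001, 0.01 and 0.1 µM), brefeldin A (0.01 and 0.1 µM), which blocks transport out of the endoplasmic reticulum, tBHQ (3 and 300 µM), the complex I inhibitor rotenone (0.2 and 0.4 µM) and troglitazone (50 µM). The treated and control cultures differ in treatment, number and cells, so their counts of calls are not compared. There 18297 genes were tested, of which 1668 rose (9.12%) and 2010 fell (11.0%) in cells above 20%. Of the 267 genes that rose in control cells 201 also rose in treated cells, 75.3% of the control list and 12.1% of the treated list. Of the 498 that fell 417 also fell, 83.7% of the control list and 20.7% of the treated list. No gene was called in opposite directions. Of the 65 genes named by a fixed rule that passed in control cells, 65 had the same sign in treated cells and 62 passed there. The largest of these differences in treated cells were POSTN (-1.68), PDGFRB (-1.56) and COL3A1 (-1.36) among falls, while SAA1 (0.58) and SAA2 (0.67) rose and ENSG00000240241 rose by 0.65, against 1.25 in control cells. SLCO1B1 fell by 0.75 on the log2 scale, with an edgeR adjusted p of 4.37e-06.

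Of 39 subunits of complexes II to V, 37 rose and 0 fell in treated cells with a median of 0.22, and of 36 complex I subunits 23 rose and 0 fell with a median of 0.16. Of 36 hepatocyte secreted protein genes 9 rose and 9 fell, with ALB (0.35) and the fibrinogens FGA (0.33), FGB (0.34) and FGG (0.32) rising and AHSG (-0.82) falling as in control cells. Of 19 mesenchymal genes 2 rose and 13 fell, of 25 cell cycle genes 9 fell, of 23 p53 targets 10 fell and of 29 integrated stress response genes 11 fell, with 0 rising in the last 3 lists. Of 18 cytokine and NF-kB genes 6 rose with a median of 0.09, against 0.38 in control cells, and TNFAIP3 (0.10, edgeR adjusted p = 0.252) and IRF1 (0.10, 0.11) did not pass.

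**Figure D5:**
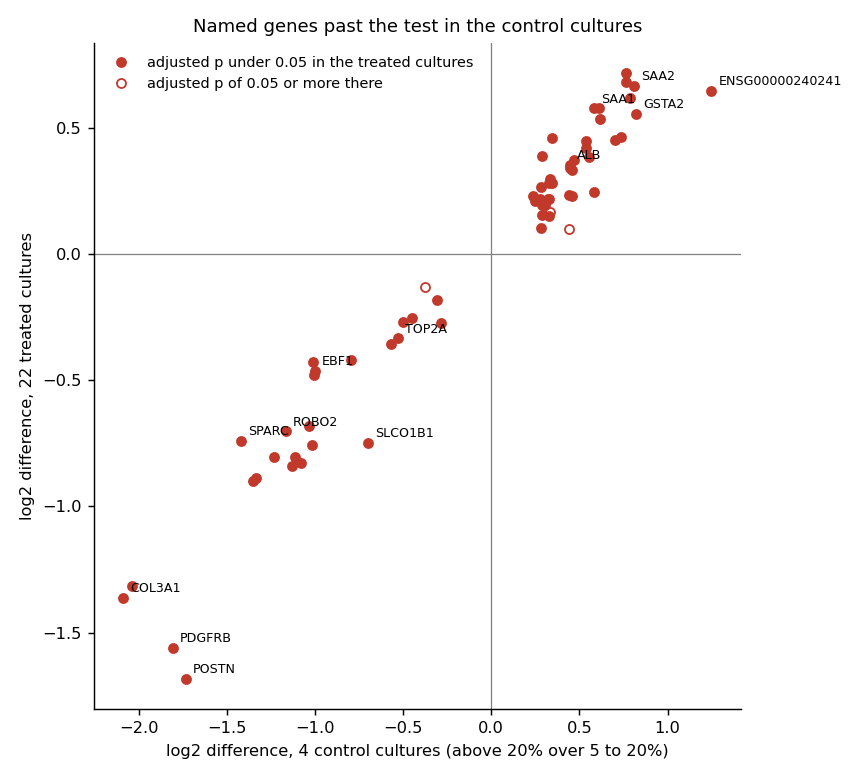
Log2 difference, cells above 20% over cells from 5 to 20%, of the 65 named genes past the test in control cultures (4 control cultures on the horizontal axis, 22 treated cultures on the vertical axis), with filled points for an adjusted p under 0.05 in the treated cultures and open points otherwise. All 65 points have the same sign on both axes, and 62 are filled.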

How the data were processed

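HepaRG cells were profiled with the Parse Evercode Whole Transcriptome kit in 8 sublibraries. The deposited counts are UMIs per gene and cell (62703 genes, 12976 cells) that the authors made with the Parse Biosciences pipeline, in which reads were aligned to GRCh38 and identical UMIs collapsed. No source used here names the aligner or the annotation version. The study describes a quality filter at 500 genes and at 20% mitochondrial RNA, and the deposited matrix still holds cells above 20%.

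Control cells were taken by sample name, grouped by their percent of UMIs in the 37 MT- genes, and summed over nuclear genes per culture and group (8 sums of 1700666 to 44628595 nuclear UMIs). The sums were tested with edgeR 4.0.16 in R 4.3.3 (quasi-likelihood, total nuclear counts as library size, filterByExpr, culture as block), with Benjamini-Hochberg adjustment over all genes tested and a threshold of 0.05. Differences within 1 culture used a prior of 0.5 CPM. Clusters were made with scanpy 1.11.5 (2000 variable nuclear genes, Leiden resolution 0.5). On counts simulated for this comparison over 20183 genes, 50 of 50 genes changed by 1.5-fold and 50 of 50 changed by 2-fold were recovered, with 16 false calls. The changed genes were drawn from those with a mean of at least 20 CPM. Changes under 1.5-fold were not simulated, although many called differences are smaller. The recovery does not extend to these or to rarer genes such as AHSG and G6PC1.

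Alternatives were other scalings, DESeq2 1.42.0, no low-count filter, other cuts and references, thinning to 5000 nuclear UMIs, blocks by depth or cluster, and each culture left out. Blocks by sublibrary and the removal of cells with recurring well barcodes were chosen after seeing the data. Named genes were the 15 largest rises and 15 largest falls with at least 50 CPM and 1 direction in every culture, up to 4 called members with at least 20 CPM of each list that had at least 3 called, and 23 fixed genes. Some called list members are not reported here. List members outside this rule were named after their values were seen. The members and lists were chosen with earlier results of these data known. Gene positions are from GENCODE 44 on GRCh38.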

Additional observations from a re-analysis of the deposited data

Results flagged for a closer look

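Among 86 groups of 4 within-culture differences that were looked at, 3 had 1 culture far from the others, where chance alone flags about 1 in 20. SLCO1B1 had a log2 difference, cells above 20% over cells from 5 to 20%, of -0.9475 in medium run 3, against -0.62, -0.61 and -0.65 in the other cultures. SPARC had -2.304 in DMSO run 3, against -1.24, -1.25 and -1.41 in the others. HPD, which encodes an enzyme of tyrosine breakdown, had 0.1379 in DMSO run 3, against 0.38, 0.39 and 0.37 in the others. The calls of SLCO1B1 and SPARC held without any 1 culture.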

How the results depend on the processing

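The counts of 267 rises and 498 falls moved with the following choices. They became 57 and 164 in DMSO cultures alone, 146 and 206 above 25%, 50 and 130 with culture by cluster as block, 669 and 937 with culture by 3 depth classes as block, 580 and 983 without a low-count filter, 27 and 68 against cells of 5 to 10%, and 148 and 220 after thinning to 5000 nuclear UMIs. Rises were 438 when the same number of cells per culture was taken by the share over the 13 protein-coding MT- genes. Of the cells taken so, 46 of 62 in DMSO run 3 and 48 of 82 in DMSO run 5 were above 20% by the rule. In medium run 3 these were 63 of 90 and in medium run 5 165 of 243. With that measure 50 of the 65 named calls passed. Falls were 752 with culture by sublibrary as block, an alternative chosen after seeing the data. Blocks by cluster, depth or sublibrary divide the same cultures and are not replicates. With no replicate block edgeR called 0 and 0, with 1383 genes (6.85%) at an unadjusted p under 0.05. Leaving out 1 culture gave 61 (medium run 3) to 208 rises and 167 (medium run 3) to 405 falls, with 109 and 223 without DMSO run 5. TMM factors (327 and 428) and DESeq2 (244 and 444) stayed within 1.5 times. The share of cells above 20%, 28.0% together, was 22.6, 38.2, 25.7, 24.3, 24.4, 30.6 and 31.7% in sublibraries 2 to 8. Of the 65 named calls, 61 passed with DESeq2, 62 with TMM, 61 within depth classes, 43 after thinning and 31 within clusters. Against cells of 5 to 10% 23 passed, and MKI67 turned to 0.13 there (adjusted p = 0.92). The cause of these moves was not tested, apart from the fewer cells and genes that the narrower alternatives hold. Depth limits rare genes, since AHSG and G6PC1 rest on 1240 and 1682 UMIs over the 8 sums, and 2 cultures of each vehicle limit the interaction.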

Other observations

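Genes of lipid synthesis, which the comparison above did not describe, lay mostly above 0 in cells above 20%. Of 23 tested genes of cholesterol and fatty acid synthesis 21 had a positive log2 difference, 3 rose and 0 fell, with a median of 0.11 against -0.02 over all genes. The 3 were DHCR7, the last reductase of cholesterol synthesis (0.33), CYP51A1, the lanosterol demethylase (0.28), and IDI1, an isomerase of the isoprenoid branch (0.25). None of the 3 calls held without medium run 3, with edgeR adjusted p of 0.105, 0.0707 and 0.199. In treated cells 13 of the 23 rose and 0 fell. Of 31 proteasome genes edgeR called 0 and DESeq2 called 0, with 5 at an unadjusted p under 0.05. SOX9, a transcription factor of biliary and progenitor cells, rose by 0.44, and that call was lost without DMSO run 3, DMSO run 5 or medium run 3, while KRT19, a biliary keratin, had a log2 difference of -0.20 (edgeR adjusted p = 0.193).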
